A study of Mus musculus with 10 samples.

Results

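The genes described here are Itgam and 9 genes used to mark monocytes in the mouse: Klf4, Ly6c2, Ccr2, Fcgr1, Cx3cr1, Lyz2, Ms4a6c, Cd68 and F13a1. They were taken by name from a table of raw read counts, as 10 of its 52636 genes, with earlier results of these data known. The table holds 10 libraries of 3′-end RNA sequencing (QuantSeq), in which reads come from the last part of a transcript, from a mouse leukemia model. Fetal liver cells had been co-transduced with 3 MSCV retroviral vectors, for DNMT3A R882H (with dsRed, under a promoter that doxycycline turns off), IDH2 R140Q (with GFP) and NRAS G12D (with TTA, the doxycycline-controlled activator). Cryopreserved leukemia cells of mice that had become moribund were put into new Ptprca recipients, and these received either normal chow and water or chow and water with doxycycline for 5 or 14 days. The cKit+/Cd11b- fraction of bone marrow and spleen was then isolated by flow cytometry.

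In the text, "on" means normal chow, with the DNMT3A R882H vector expressed, and "off" means doxycycline, with that vector turned off. There were 4 libraries of the day 14 off group and 2 each of day 14 on, day 5 off and day 5 on. IDH2 R140Q and NRAS G12D were carried in every group, off groups included. No group received doxycycline without the regulated vector, so an effect of doxycycline and one of turning off DNMT3A R882H cannot be told apart. The labels do not say which library came from marrow or from spleen, whether each came from its own mouse, how old the mice were, or that a donor marker was used in the sort. The p-values therefore measure the spread between these libraries, which may in part be technical.

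Itgam encodes CD11b, the alpha chain that pairs with the beta 2 chain encoded by Itgb2 to form the adhesion receptor Mac-1 of monocytes, macrophages and neutrophils. Monocytes arise in the marrow from cKit-positive progenitors, losing Kit and gaining CD11b as they mature. Classical mouse monocytes carry Ly6C and the chemokine receptor CCR2, through which they leave the marrow, whereas patrolling monocytes carry less Ly6C and more CX3CR1, the receptor for fractalkine. Klf4 is a zinc finger transcription factor needed for monocytes to form, and PU.1 and C/EBP factors act with it. Because the sort kept cells without CD11b protein, Itgam reads here are RNA measured in cells gated as negative for its protein, so its level is that of cells chosen for lacking the protein.

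The sequences just before the start of transcription are shown for 4 of the genes that were lower in the off group at day 14, to place these genes beside the myeloid factors. They are the 250 bases before the RefSeq start, on the gene's own strand, build GRCm38.p6 (mm10). The windows of Itgam, Klf4 and Ly6c2 hold no annotated exon base and that of Ms4a6c holds 2. Capitals mark each GAGGAA, a PU.1 core sequence, on either strand (TTCCTC on the other strand).

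Itgam, chr7:128062390-128062639, plus strand: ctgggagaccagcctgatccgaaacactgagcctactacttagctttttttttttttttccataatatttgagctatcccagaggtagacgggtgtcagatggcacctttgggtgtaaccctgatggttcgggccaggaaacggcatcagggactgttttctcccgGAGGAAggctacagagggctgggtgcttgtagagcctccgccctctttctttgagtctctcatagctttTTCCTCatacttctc
Klf4, chr4:55532476-55532725, minus strand: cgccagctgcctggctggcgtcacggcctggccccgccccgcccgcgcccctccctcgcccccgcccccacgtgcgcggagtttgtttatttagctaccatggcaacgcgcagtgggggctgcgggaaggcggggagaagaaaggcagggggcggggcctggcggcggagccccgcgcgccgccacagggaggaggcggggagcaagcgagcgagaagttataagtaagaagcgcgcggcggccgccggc
Ly6c2, chr15:75111972-75112221, minus strand: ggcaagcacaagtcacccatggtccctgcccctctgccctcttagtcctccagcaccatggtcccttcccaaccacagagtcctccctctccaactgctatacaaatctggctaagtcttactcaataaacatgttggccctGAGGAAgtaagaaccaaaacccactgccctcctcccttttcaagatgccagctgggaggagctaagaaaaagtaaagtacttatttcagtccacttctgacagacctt
Ms4a6c, chr19:11469118-11469367, plus strand: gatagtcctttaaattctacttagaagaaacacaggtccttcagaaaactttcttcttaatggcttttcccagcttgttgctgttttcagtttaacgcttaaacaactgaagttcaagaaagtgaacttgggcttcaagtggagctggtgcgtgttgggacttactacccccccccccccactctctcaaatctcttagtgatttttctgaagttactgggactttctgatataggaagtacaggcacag

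Itgam holds GAGGAA 84 bases before its start and, on the other strand, 15 bases before it. Ly6c2 holds it 108 bases before its start, and a second annotated start of Ly6c2 also has a match 8 bases before it. Klf4 and Ms4a6c do not hold it in the windows shown. RefSeq gives 12 such windows for the 10 genes, and the pair for Ly6c2 overlap. In the annotation used for read sharing, some of these windows hold annotated exon bases: 250 of 250 bases for Cx3cr1, 233 for Ccr2, 75 for the second window of F13a1, 49 for Lyz2 and 31 for the second window of Ly6c2. GAGGAA was found on either strand in 6 of the 12 windows, of 5 genes (Itgam, Ly6c2, Cd68, Fcgr1 and F13a1), and in 23.4% of 32536 windows of all genes. The C/EBP sequence TTGCNNAA was found in 1 of the 12, that of Cd68, and in 9.57% of all windows. The CACCC box of the KLF family was found in 5 of the 12 and in 52.1% of all windows. None of these motifs contains another.

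Total counts ran from 9292644 to 14340624 per library. Levels are given as CPM, read counts relative to library size after edgeR's TMM scaling, so that 1 count equals 0.0688 to 0.112 CPM. A gene entered the test where enough libraries had enough reads, which left 15916 genes and 9 of the 10 genes described here. Fcgr1, the high-affinity IgG receptor CD64 of monocytes and macrophages, had 0 to 5 counts per library and was not tested. It had 0 counts in day 5 off replicate 2 and day 5 on replicate 1, where 3 counts would have been 0.243 and 0.337 CPM, and its other libraries lay between 0.0732 and 0.516 CPM. These limits cover counting error only, and no difference in Fcgr1 could be detected at this depth. The sort gene Kit was between 30.9 and 98.1 CPM in all 10 libraries. No cKit-negative library is at hand to set these levels against.

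At day 14, with the vector off, Itgam, the regulator Klf4 and the surface or secreted products Ly6c2, Ms4a6c and Lyz2 were lower than in the on group, by 2.32 to 4.86 fold. These 5 of the 9 tested genes passed an adjusted p of 0.05, and none of the 9 was called higher. Of all tested genes 31.8% passed in either direction (14.9% lower, 16.9% higher). All 5 also had groups that did not overlap, where 24.6% of all tested genes were lower without overlap. The median log2 fold change of the 9 genes was -1.21, against 0.01 for all tested genes. Ccr2, Cd68, F13a1 and Cx3cr1 did not pass, and Cx3cr1 and F13a1 had estimates above 0. With no filter on low counts 7 genes passed, and 5605 of 29010 genes in all. The additional ones among the 7 were Cx3cr1, higher (adjusted p = 1.91e-06), and Ccr2, lower (adjusted p = 0.000138). With the filter the same counts gave adjusted p = 0.147 and 0.422, and the groups of both genes overlapped. The unfiltered p-values are therefore not a guide to the spread between libraries, and the cause of the gap was not tested. In these bulk samples fewer cells of a type and less RNA per cell cannot be told apart.

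Itgam was at 3.73, 3.51, 2.07 and 3.29 CPM in the 4 off libraries and at 21.9 and 8.76 CPM in the 2 on libraries. Every off library lay below both on libraries, and the on libraries differed from each other by 2.50 fold. The group means were 3.15 ± 0.744 CPM (SD, n = 4) and 15.3 ± 9.27 CPM (SD, n = 2), and the log2 fold change was -2.28 ± 0.56 (SE, adjusted p = 0.0121). Itgb2, its partner chain, did not pass the test (log2 fold change -0.90 ± 0.34, adjusted p = 0.0678).

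Klf4 was at 22.5, 23.2, 31.5 and 25.3 CPM in the off libraries and at 123 and 52.7 CPM in the on libraries. The off libraries were close to each other and all below the lower on library. The means of 25.6 ± 4.07 CPM (SD, n = 4) and 88.0 ± 50.05 CPM (SD, n = 2) gave a log2 fold change of -1.78 ± 0.29 (SE, adjusted p = 0.00137). Klf4 passed the test with any single library of the study left out, and without day 14 on replicate 1 its log2 fold change was -1.07 (adjusted p = 0.0119).

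Ly6c2, which encodes the Ly6C antigen of classical monocytes, was at 3.47, 5.34, 4.68 and 5.55 CPM in the off libraries. Its on libraries were at 16.2 and 8.85 CPM, both above every off library. The log2 fold change was -1.39 ± 0.44 (SE, adjusted p = 0.0345). Ms4a6c, a membrane protein of the MS4A family, was at 19.9, 14.5, 24.4 and 16.1 CPM off and at 121 and 47.4 CPM on. The off libraries again lay below both on libraries, with a log2 fold change of -2.16 ± 0.45 (SE, adjusted p = 0.00545). Lyz2, the lysozyme of myeloid cells, was at 131, 98.5, 160 and 127 CPM off and at 408 and 191 CPM on. The highest off library was below the lower on library, and the log2 fold change was -1.21 ± 0.37 (SE, adjusted p = 0.0308).

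The estimates for the chemokine receptors Ccr2 and Cx3cr1 had opposite signs, and neither gene passed the test. Ccr2 was at 6.94, 19.5, 3.58 and 11.1 CPM off and at 29.0 and 11.7 CPM on, with 1 off library above the lower on library. Its log2 fold change of -0.98 ± 0.86 (SE, adjusted p = 0.422) was within the spread between libraries. Cx3cr1 was at 52.5, 68.5, 31.6 and 48.4 CPM off and at 34.9 and 9.75 CPM on. Its groups overlapped by 1 library on each side, and its estimate lay above 0 (log2 fold change 1.17 ± 0.57, 95% interval -0.10 to 2.45, adjusted p = 0.147). Cd68, a lysosomal protein of macrophages, was at 8.64 to 15.8 CPM off and at 18.8 and 11.7 CPM on (log2 fold change -0.46 ± 0.31, adjusted p = 0.29). F13a1, the coagulation factor XIII A chain that monocytes make, was at 0.0941 to 3.22 CPM off and at 1.87 and 0.361 CPM on. Its log2 fold change was 0.32 ± 1.02, with an interval from -1.96 to 2.60.

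**Figure D1:**
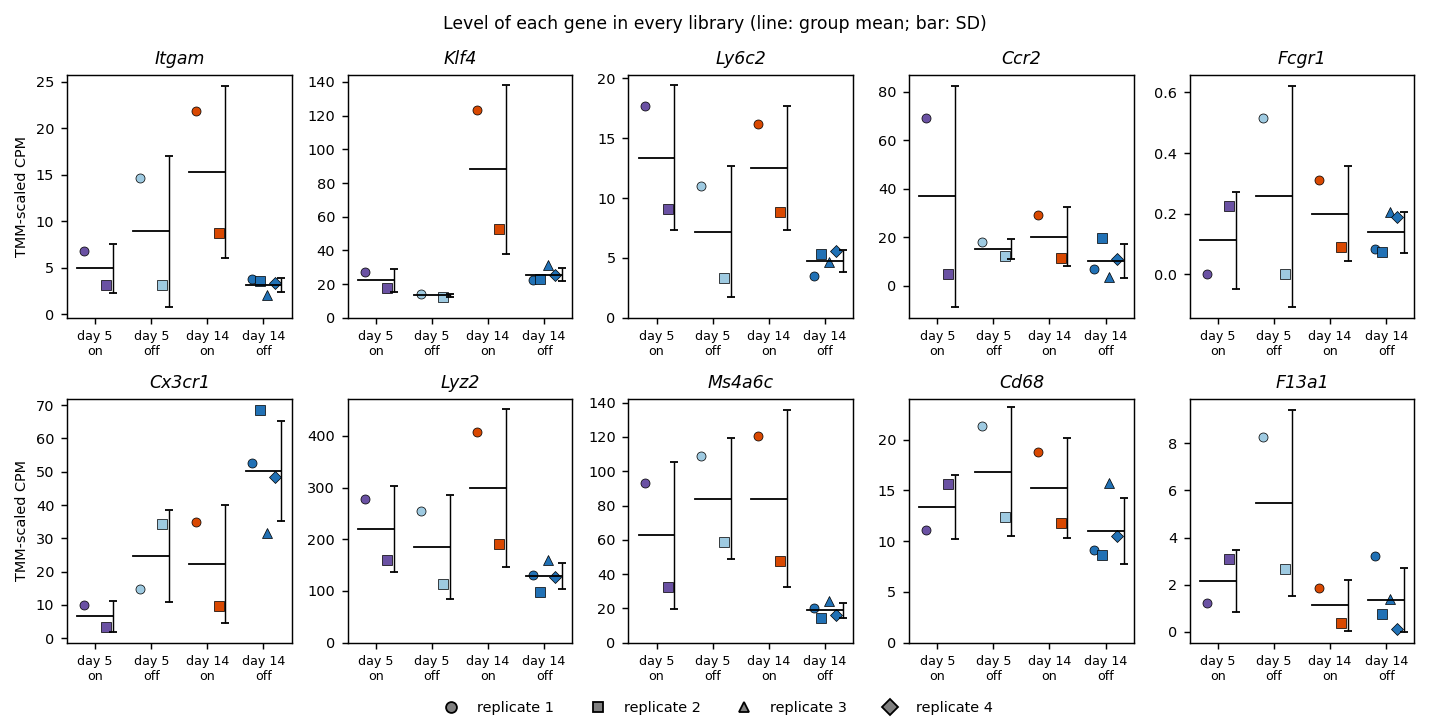
TMM-scaled CPM (vertical axes, linear) of the 10 genes in each library of the 4 groups, with points for libraries, lines for group means and bars for the SD. At day 14 the 4 off libraries lie below both on libraries for Itgam, Klf4, Ly6c2, Lyz2 and Ms4a6c, and Cx3cr1 has its highest library, 68.5 CPM, in the day 14 off group.

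The size of these differences rested largely on 1 library. All 9 tested genes were higher in day 14 on replicate 1 than in replicate 2, each by more than 1.5 fold, from 1.60 fold for Cd68 to 5.16 fold for F13a1. Of all tested genes 16.6% were past 1.5 fold in that direction. Without day 14 on replicate 1 the log2 fold change was -1.07 for Klf4 and 2.33 for Cx3cr1. Itgam (-1.51, adjusted p = 0.14), Ms4a6c (-1.37, adjusted p = 0.0809), Ly6c2 (-0.92, adjusted p = 0.273) and Lyz2 (-0.60, adjusted p = 0.355) kept their direction and did not pass. The day 14 on group then had 1 library, which is assumed to vary like the others. Leaving out off libraries also ended calls: Ly6c2 did not pass without any of the 4 (adjusted p = 0.0757, 0.0523, 0.0607 and 0.0501 without replicates 1 to 4), and Lyz2 did not pass without replicates 1, 2 or 4 (adjusted p = 0.0544, 0.0602 and 0.0547).

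**Figure D2:**
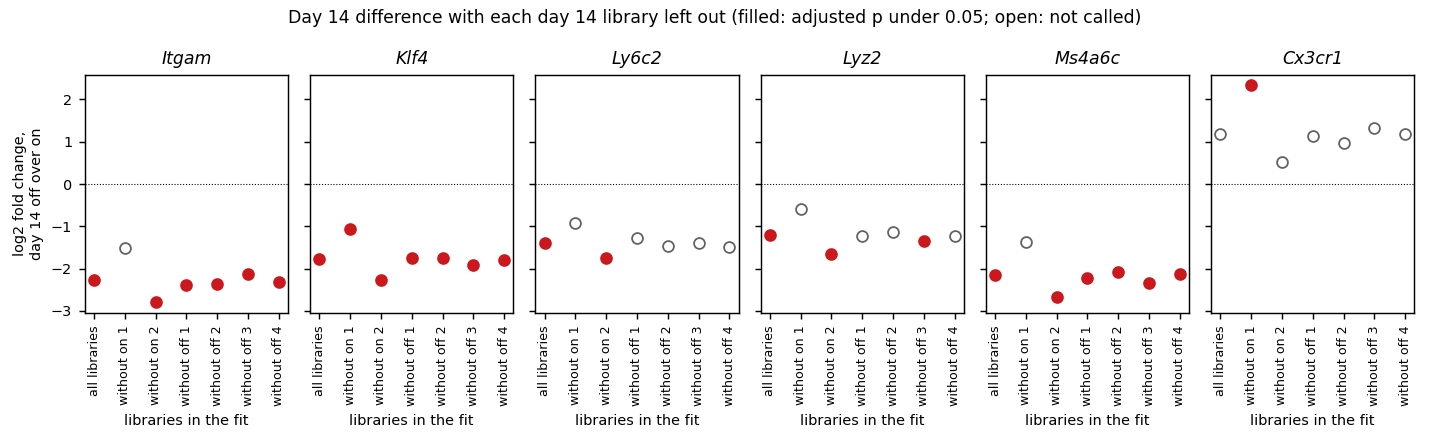
Day 14 log2 fold change, off over on (vertical axis), of the 5 genes that passed and Cx3cr1, with all libraries and with each day 14 library left out (horizontal axis); filled points passed an adjusted p of 0.05 and open points did not. Without day 14 on replicate 1 all 5 lower genes move toward 0, to -1.07 for Klf4 and -0.60 for Lyz2, and Cx3cr1 moves to 2.33.

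At day 5 none of the 9 tested genes passed in edgeR's test. For 1, Cx3cr1, the unadjusted p was below 0.05, as for 2374 of all 15916 tested genes. DESeq2 and limma voom also called none of the 9. With no filter on low counts edgeR called 2, Cx3cr1 higher (adjusted p = 2.76e-11) and Ccr2 lower (adjusted p = 0.000331). In all, that setting called 992 of 29010 genes. With the filter the same counts gave adjusted p = 0.243 and 0.61, and both off libraries of Ccr2 lay between its on libraries. The cause of this gap was not tested either. Of all tested genes 0.484% passed at day 5 (0.371% higher, 0.113% lower). Cx3cr1 was at 14.8 and 34.4 CPM off and at 9.89 and 3.38 CPM on, without overlap (19.3% of all tested genes were higher without overlap). Its log2 fold change of 1.94 ± 0.69 (SE, 95% interval 0.41 to 3.46, adjusted p = 0.243) had the same sign as at day 14. Klf4 was at 13.9 and 12.6 CPM off and at 27.2 and 17.4 CPM on, so that both off libraries lay below both on libraries, as 20.9% of all tested genes did. Its log2 fold change of -0.75 ± 0.37 did not pass (adjusted p = 0.382).

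Itgam at day 5 was at 14.6 and 3.17 CPM off and at 6.74 and 3.08 CPM on. In each group replicate 1 was the higher library, and the difference of 0.87 ± 0.69 on the log2 scale (adjusted p = 0.608) was smaller than the spread within the off group. Ly6c2 was at 11.03 and 3.33 CPM off and at 17.6 and 9.09 CPM on, with a log2 fold change of -0.90 ± 0.52 (adjusted p = 0.462). Lyz2 was at 255 and 114 CPM off and at 278 and 160 CPM on, and Ms4a6c was at 109 and 58.8 CPM off and at 92.8 and 32.2 CPM on. Both had overlapping groups, with log2 fold changes of -0.25 ± 0.44 and 0.43 ± 0.54. Cd68 (0.32 ± 0.36) and F13a1 (1.29 ± 1.004) overlapped as well.

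Ccr2 at day 5 was at 18.0 and 12.3 CPM off and at 69.2 and 4.73 CPM on. The on libraries held both the highest and the lowest of these values, 14.6 fold apart, and the sign of the difference came from the higher one: the log2 fold change was -1.28 ± 1.01 with it and 1.65 without day 5 on replicate 1. No 50-base stretch in the last 500 bases of the Ccr2 transcript occurs in another gene.

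Between day 5 and day 14 the genes were also compared within each state of the vector. These comparisons use the same libraries as those above, and day is not separated from the mice or sort of that day. In the on groups Klf4 rose, with a mean of 22.3 ± 6.92 CPM at day 5 (SD, n = 2) against 88.0 ± 50.05 CPM at day 14 (SD, n = 2). The log2 fold change was 1.99 ± 0.36 (adjusted p = 0.0338), and it was the 1 of 9 genes that passed, where 2.32% of all tested genes passed (0.968% higher, 1.36% lower). That call was lost without day 14 on replicate 1 (1.28, adjusted p = 0.162), without either day 5 on library (adjusted p = 0.0562 and 0.0627) and without day 14 off replicates 1, 2 or 4 (adjusted p = 0.0665, 0.0571 and 0.0689). It was also lost in a fit of the on groups alone (adjusted p = 0.408). With no filter on low counts 3 genes passed, Itgam and Cx3cr1 in addition to Klf4, and 1275 of 29010 genes in all. The day 14 libraries of Itgam lay above both day 5 libraries, as for 20.6% of all tested genes, without passing the test (1.66 ± 0.68, adjusted p = 0.205). Cx3cr1 did not pass (1.78 ± 0.69, adjusted p = 0.178).

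In the off groups Ms4a6c fell, with a mean of 83.8 ± 35.3 CPM at day 5 (SD, n = 2) against 18.7 ± 4.43 CPM at day 14 (SD, n = 4). The log2 fold change was -2.16 ± 0.45 (adjusted p = 0.0118), and the groups did not overlap, as for 21.5% of all tested genes on that side. It was the 1 of 9 genes that passed, where 17.0% of all tested genes did (10.1% higher, 6.94% lower), and it did not pass without day 5 off replicate 1 (-1.66, adjusted p = 0.116). Itgam had a log2 fold change of -1.49 ± 0.58 (adjusted p = 0.108), with the day 5 off replicate 2 value of 3.17 CPM inside the range of the day 14 off libraries. Without that replicate its log2 fold change was -2.22 (adjusted p = 0.0246). Klf4 had the opposite sign, 0.95 ± 0.33 (adjusted p = 0.0713), with every day 14 off library above both day 5 off libraries, as for 24.2% of all tested genes. It passed without either day 14 on library (adjusted p = 0.0164 and 0.0158). F13a1 had a log2 fold change of -1.98 ± 0.85 (adjusted p = 0.137). DESeq2 called Itgam and Klf4 as well (adjusted p = 0.0394 and 0.0214), and 3196 of 15916 genes in all. With no filter on low counts edgeR called 6, Itgam, Klf4, Cx3cr1, Lyz2 and F13a1 in addition to Ms4a6c, and 3421 of 29010 in all. As at day 14, the unfiltered p-values are not a guide to the spread between libraries.

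Whether the off over on difference itself changed from day 5 to day 14 was tested as an interaction, and none of the 9 genes passed in edgeR's test (3.06% of all tested genes did, 1.65% toward higher and 1.41% toward lower). The unadjusted p was below 0.05 for 2 of them, Itgam (-3.15 ± 0.90, adjusted p = 0.0827) and Ms4a6c (-2.59 ± 0.71, adjusted p = 0.076). Over all tested genes it was below 0.05 for 3681 of 15916. DESeq2 called Itgam and Ms4a6c (adjusted p = 0.00579 and 0.00277), and 1327 of 15916 genes in all. Under limma voom none of the 9 genes passed. An edgeR fit with the replicate number as a block called 3, Itgam, Lyz2 and Ms4a6c, all toward lower. That fit called 1521 of 15916 genes in all. With no filter on low counts edgeR called 4, Itgam, Klf4, Lyz2 and Ms4a6c, and 1957 of 29010 genes in all. Itgam passed without day 5 off replicate 2 (-3.88, adjusted p = 0.0244), and Ms4a6c without day 5 on replicate 1 (-3.55, adjusted p = 0.0309). For Klf4 the difference was -1.03 ± 0.47 (adjusted p = 0.222), and for Cx3cr1 -0.76 ± 0.86 (adjusted p = 0.639), with an interval of -2.69 to 1.16.

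**Figure D3:**
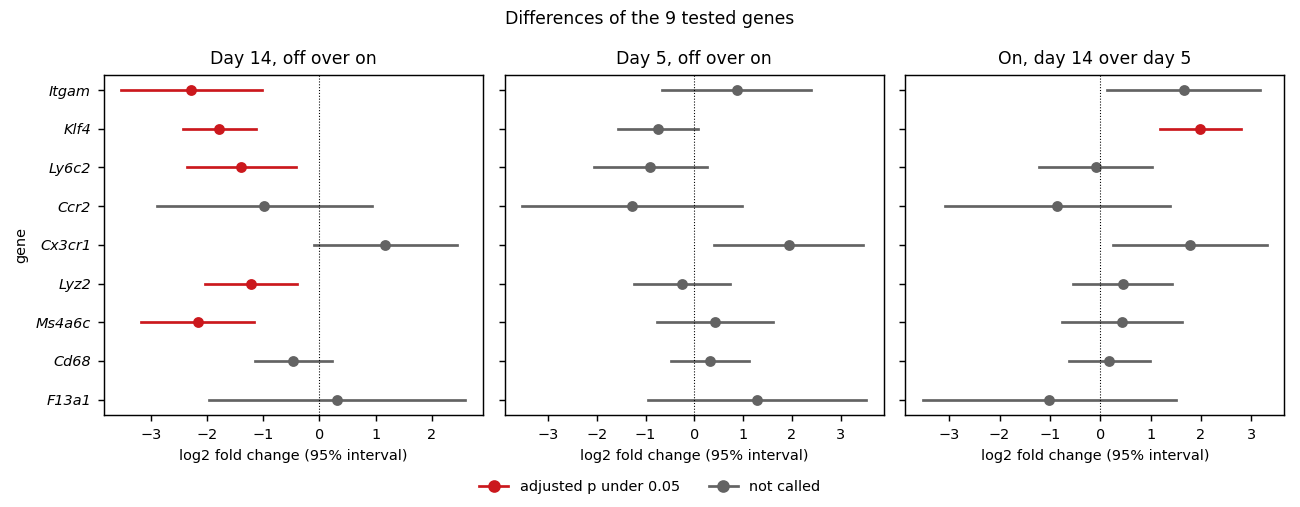
Log2 fold changes with 95% intervals (horizontal axes) of the 9 tested genes (vertical axis), with panels for off over on at day 14, off over on at day 5 and day 14 over day 5 in the on groups; red marks genes past an adjusted p of 0.05 and grey the others. Itgam, Klf4, Ly6c2, Lyz2 and Ms4a6c lie below 0 at day 14, and Cx3cr1 is above 0 at day 14 and day 5.

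The tendency of replicate 1 to be the higher library was present in each group of 2 libraries. In day 5 off, 8 of the 9 tested genes were higher in replicate 1, 6 of them by more than 1.5 fold, where 12.5% of all tested genes were. In day 5 on, 7 of 9 were higher in replicate 1, all by more than 1.5 fold, where 21.1% of all tested genes were. Itgam had the same direction in the 3 groups, 2.50 fold in day 14 on, 4.63 fold in day 5 off and 2.19 fold in day 5 on. Cx3cr1 was 3.58 and 2.93 fold higher in replicate 1 of the on groups and 2.32 fold higher in replicate 2 of day 5 off. Whether the replicate number marks marrow and spleen is not given in the labels.

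Other genes of the monocyte and macrophage lineage were counted from a list of 40, of which 39 were tested. At day 14, 17 of 39 were lower and 0 higher in the off group (of all tested genes 14.9% were lower and 16.9% higher), with a median log2 fold change of -1.09, and 6 were called without day 14 on replicate 1 and 15 without replicate 2. Ccl9, a chemokine of myeloid cells, was at 3.01 to 5.44 CPM off and at 46.2 and 36.9 CPM on (-3.19 ± 0.31, adjusted p = 9.2e-05). Ccl6, a chemokine of the same family, was lower as well (log2 fold change -2.80 ± 0.40, adjusted p = 0.000696). Both are among the genes of smallest p on the list. Csf1r, the receptor for the monocyte growth factor M-CSF, did not pass (0.22 ± 0.16, adjusted p = 0.31), with the 4 off libraries at 18.0 to 20.1 CPM and the on libraries at 15.3 and 17.3 CPM. The summed level of the list was 1899 to 3542 CPM off and 2317 to 5269 CPM on, which overlapped.

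A list of 11 genes held integrins of leukocytes, Itgam not included, and also Icam1, Fermt3 and Tln1, which are not integrins. Of these 11 genes 4 were lower at day 14 and 0 higher, beside the same shares of 14.9% and 16.9% over all tested genes. The number called changed when either day 14 on library was left out. Itga4, the alpha 4 chain that binds VCAM-1, was at 113 to 143 CPM off and at 337 and 387 CPM on (-1.52 ± 0.13, adjusted p = 4.99e-05). Itgb7, which pairs with it (-1.05 ± 0.28, adjusted p = 0.0169), and Itgal, the alpha chain of LFA-1 (-0.90 ± 0.29, adjusted p = 0.0372), passed as well, and neither passed without day 14 on replicate 1 (adjusted p = 0.224 and 0.473). Itgax, which encodes CD11c, did not (-0.17 ± 0.37, adjusted p = 0.763).

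Of 15 regulators of myeloid cells, Klf4 among them, 5 were lower at day 14 and 0 higher, where 31.8% of all tested genes passed in either direction. Leaving out day 14 on replicate 1 gave 3 calls, and leaving out replicate 2 gave 6, of which 1 was higher. Gfi1, a transcriptional repressor that neutrophil development requires, was at 2.91 ± 1.35 CPM (SD, n = 4) off and 14.7 ± 7.17 CPM (SD, n = 2) on (-2.32 ± 0.43, adjusted p = 0.00275). The Krüppel-like factor gene Klf6 was lower (-1.05 ± 0.22, adjusted p = 0.00505). Cebpa, which encodes C/EBP alpha, was lower (-2.04 ± 0.49, adjusted p = 0.0111) and did not pass without day 14 on replicate 1 (-1.48, adjusted p = 0.117). Spi1, which encodes PU.1, did not pass (-0.84 ± 0.37, adjusted p = 0.113), nor did Irf8, a regulator of monocytes and dendritic cells (-0.06 ± 0.54, adjusted p = 0.939). Irf8 ranged from 622 to 1496 CPM off and was at 1632 and 471 CPM on, so that its on libraries lay on both sides of the off libraries.

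Markers of other cells were counted in the same comparison, where 14.9% of all tested genes were lower and 16.9% higher. Their part in the differences above was not tested. Of 13 erythroid genes 7 were higher at day 14 off and 0 lower, with the summed level at 3150 to 4048 CPM off against 1233 to 1782 CPM on, and the count was 7 without either day 14 on library. Gata1, the erythroid regulator, went from a mean of 2.89 CPM on to 69.1 CPM off (4.58 ± 0.58, adjusted p = 0.000424). Of 18 tested neutrophil markers 5 were lower and 1 higher, and 2 were called without day 14 on replicate 1. Padi4, a histone-modifying enzyme of neutrophils, was lower (-3.68 ± 0.30, adjusted p = 4.51e-05). Mmp9, a neutrophil gelatinase, was higher (log2 fold change 1.18, adjusted p = 0.01), and did not pass without either day 14 on library (adjusted p = 0.0613 and 0.073). Of 10 tested markers of tissue macrophages 2 were lower, and of 10 of dendritic cells 0 passed edgeR's test (1 at an unadjusted p below 0.05). Over all tested genes 6745 of 15916 had an unadjusted p below 0.05. Of 5 tested B cell markers 1 was lower, and of 8 of T and NK cells 3 were lower. No neutrophil, erythroid, B, T or NK marker was at 0 in every library of a group, whereas the macrophage genes C1qb and Mertk and the dendritic gene Cd209a were at 0 in day 5 off and Marco in day 5 on. Kit itself was lower in the off group, with all 4 off libraries at 30.9 to 36.4 CPM and the on libraries at 88.9 and 98.1 CPM (-1.44 ± 0.12, adjusted p = 4.78e-05). Its difference also changed between days (-1.08 ± 0.19, adjusted p = 0.022).

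Across all 10 libraries the genes whose log2 CPM was most like that of Itgam, among 12746 whose average log2 CPM was 1 or more, were Ckap4 (Pearson r 0.954), Bcl3 (0.953), Nfkb1 (0.951), Trp53bp2 (0.945) and Cyfip1 (0.942). Among the monocyte markers Lyz2 was the nearest, at 0.838 and rank 131, followed by Ms4a6c at 0.788 and Ly6c2 at 0.747. Klf4 was at 0.534 and Cx3cr1 at -0.16. These are descriptions over libraries that share groups and replicate numbers, and have no test.

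Some of these counts can include reads of other genes, since neither labels nor notes state how strand and shared reads were counted. Ms4a6c, on chromosome 19 at 11469366 to 11482192 (mm10), shares 1088 of its 2050 exon bases with BE692007 on the opposite strand. The counts of BE692007 were 0.899 to 1.04 times those of Ms4a6c in the 10 libraries. With both strands searched, each 50-base stretch of the last 500 bases of Ms4a6c also occurs in another gene. Its values are therefore uncertain as those of Ms4a6c alone. BE692007 gave -2.16 ± 0.44 at day 14 (adjusted p = 0.00483), and the paralog Ms4a6b gave -1.37 ± 0.26 (adjusted p = 0.00288). Itgam, on chromosome 7 at 128062640 to 128118491, shares 3450 of its 5024 exon bases with Gm49368 on the same strand, which had 3 to 38 counts, 0.0857 to 0.268 times those of Itgam. Gm49368 was also lower at day 14 (-2.20 ± 0.74, adjusted p = 0.0423).

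Of the 50-base stretches in the last 500 bases of Lyz2, 16.9% also occur in Lyz1, the neighbouring lysozyme gene, which had 29 to 92 counts per library and did not pass at day 14 (-0.64 ± 0.47, adjusted p = 0.327). For Ly6c2 20.6% occur in Ly6c1, Ly6a or I830127L07Rik, and Ly6c1 had 2 to 13 counts. For Cx3cr1 3.77% occur elsewhere on either strand, and for Itgam, Klf4, Ccr2, Fcgr1, Cd68 and F13a1 none do. The Cx3cr1 model spans 168264 bases of chromosome 9 and contains other genes in its introns.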

How the data were processed

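The deposited table holds raw counts per gene for 10 libraries. Per the submitters' processing notes, the authors used bcl2fastq 2.17.1.14, cutadapt 1.14, HISAT2 2.0.4, featureCounts from Subread 2.0.0, edgeR 3.34.0, limma 3.48.3 and mm10. How strand and shared reads were counted, and with which annotation, is not given in the sources used here. Total counts were 9292644 to 14340624 per library, and 3 genes of ribosomal RNA loci took 7.78% to 16.5% of them.

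Groups were taken from the labels. Counts were fitted over all 4 groups with edgeR 4.0.16 (R 4.3.3): filterByExpr, TMM scaling and the robust quasi-likelihood test, with Benjamini-Hochberg adjustment over 15916 genes and a threshold of 0.05. Contrasts were off over on at each day, day 14 over day 5 in each state, and the difference between days. Standard errors are the log2 fold change over the root of F, and 95% intervals come from the same fit. Correlations used log2 CPM with a prior count of 2. The fit was tested on simulated data. Read sharing and positions came from GENCODE M21 exons and transcripts, matched by identifier for 52489 of 52636 genes, and sequences from RefSeq (GRCm38.p6), where all 10 genes had an entry.

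Alternatives were RLE scaling, no filter, a filter of 5 CPM in 2 libraries, DESeq2 1.42.0, limma voom 3.58.1, a replicate block, the compared groups alone and each library left out. Leaving out both on replicates numbered 1, and recounting 5 gene lists without each day 14 on library, were chosen after seeing the data. The genes and lists were chosen with earlier results of these data known. Named genes are the 10 genes in each comparison, up to 3 called genes of smallest day 14 p on each other list, Kit and Itgb2, the 5 genes most like Itgam, and the paralogs Lyz1, Ly6c1, Ms4a6b and Ms4a6d; some genes that the rule names are not reported here. Csf1r, Irf8, Spi1, Itgax, Gata1, BE692007 and Gm49368 were named outside that rule, after their values were seen.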

Additional observations from a re-analysis of the deposited data

Results flagged for a closer look

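The off over on difference itself differed between day 5 and day 14 by the interaction test for 3 genes named above that are not among the monocyte markers. For Ccl9 the log2 fold change was 0.48 ± 0.36 at day 5 and -3.19 ± 0.31 at day 14, a difference of -3.68 ± 0.49 (adjusted p = 0.00646). For Padi4 it was -1.07 ± 0.32 at day 5 and -3.68 ± 0.30 at day 14, a difference of -2.61 ± 0.44 (adjusted p = 0.0186). For Kit it was -0.36 ± 0.15 at day 5 and -1.44 ± 0.12 at day 14, a difference of -1.08 ± 0.19 (adjusted p = 0.022).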

How the results depend on the processing

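At day 14 the log2 fold changes of the 5 lower genes kept their sign in each alternative run, with Klf4 called in each of them. Leaving out 1 library at a time gave 2 to 5 of the 9 genes called at day 14 and 2985 to 5738 genes in all, against 5 and 5063. Lists at day 14 were recounted only without each day 14 on library, which left that group with 1 library. Without replicate 1 and without replicate 2, the counts were 6 and 15 for other monocyte and macrophage genes. In the same order they were 1 and 5 for integrins, 3 and 6 for regulators and 2 and 7 for neutrophil markers. Genes called at day 5 ranged from 0 to 304 (77 with all libraries) when each library of the study was left out in turn. For day 14 over day 5 they then ranged from 0 to 680 on (370) and 601 to 3409 off (2706). For the difference between days they ranged from 106 to 965 (487). The 9 genes called ranged from 0 to 1 on, 0 to 2 off and 0 to 1 in the difference. Without both on replicates numbered 1, 804 genes were called at day 5 and 0 on, and of the 9 genes 3 at day 14, 0 on, 2 off and 1 in the difference. In that setting signs reversed for Ccr2 (1.62 at day 5, 1.29 on and -1.85 in the difference), Lyz2 at day 5 (0.15), Cd68 on (-0.42) and F13a1 in the difference (1.09).

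With no low-count filter 29010 genes were tested. The counts were 5605 at day 14, 992 at day 5, 1275 on, 3421 off and 1957 in the difference. Of the markers (all 10 tested in that setting) they were 7 at day 14, 2 at day 5, 3 on, 6 off and 4 in the difference. DESeq2 called 472 at day 5, 1136 on, 3196 off and 1327 in the difference, and of the 9 genes 3 off and 2 in the difference. limma voom called 0 genes at day 5. The compared groups alone gave 0 at day 5, 0 on and 3817 off, and of the 9 genes 0 on and 2 off. The cause was not tested.

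Replicate numbers were not used to pair the libraries in the main fit, and the labels do not state a pairing. The 12 same-number correlations of deviations from group means were 0.0295 to 0.334. Each of 24 combinations of a library and another group had its highest correlation at the same number. The deviations of a group of 2 mirror each other, so these 24 are not independent, and they are a hint from the data and not the design. With the replicate block 5196 genes were called at day 14, 225 at day 5, 1014 on and 1521 in the difference. Of the 9 genes, 4 were called at day 14 with the block (Ly6c2 at adjusted p = 0.0532) and 3 in the difference (Itgam, Lyz2 and Ms4a6c), and Ccr2 off changed sign to 0.089.

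Under limma voom Ccr2 changed sign on (0.20) and in the difference (-0.99). With single libraries left out, signs reversed as follows. At day 14 F13a1 ranged from -0.52 to 1.85. At day 5 the ranges were -2.17 to 1.65 for Ccr2, -0.12 to 0.67 for Cd68, -0.59 to 1.60 for Itgam, -0.083 to 0.45 for Itgb2, -0.93 to 0.22 for Lyz2 and -0.12 to 1.35 for Ms4a6c. On, they were -1.74 to 2.09 for Ccr2, -0.17 to 0.49 for Cd68, -0.16 to 0.84 for Itgb2, -0.55 to 0.45 for Ly6c2, -0.17 to 0.90 for Lyz2 and -0.35 to 1.38 for Ms4a6c. Off, they were -1.21 to 0.50 for Ly6c2 and -0.98 to 0.17 for Lyz2. In the difference between days they were -2.66 to 1.18 for Ccr2, -1.71 to 0.38 for Cx3cr1, -1.84 to 0.57 for F13a1 and -1.12 to 0.57 for Ly6c2. Low counts limit Fcgr1 and F13a1 most.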
